A study of Mus musculus with 2 samples.

Results

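The Nupr1-Neat1 class is a set of 150 mouse muscle stem cells (MuSCs) in which 4 stress-inducible genes, Nupr1, Neat1, Hmox1 and Ndrg1, stood above the genes of 5 other programmes. Its members were chosen by measured expression, in the short-read gene table of the larger of the 2 libraries of a single 10x 3′ capture. Of the 3001 barcodes of that table, 606 held at least 20000 unique molecular identifiers (UMIs) and were scored. The barcodes were scored on log2(CPM + 1), where CPM is the count of a gene scaled to a fixed total of UMIs per barcode. Each barcode received the mean z-score of 6 sets of 4 genes, and it joined the class if the N set (Nupr1, Neat1, Hmox1 and Ndrg1) had the highest mean. The other sets were H (Hspa1a, Fosb, Smad7 and Atf3), D (Myog, Mymk, Cdkn1c and Ak1), I (Ifit1, Isg15, Iigp1 and Ifi27l2a), M (Ccnb1, Cdc20, Cdk1 and Birc5) and S (Mcm5, Mcm6, Pcna and Tyms). After 3 barcodes with UMIs of the leukocyte gene Ptprc had been set aside, the 150 members made up 24.9% of 603 barcodes, with an exact binomial 95% interval of 21.5% to 28.5% that covers counting error only. The other 453 barcodes fell into the M (139), H (108), D (72), S (72) and I (62) classes.

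Both libraries were made from Pax7CreERT2; R26R-YFP mice on a C57BL6 background, aged 3 months, in which the Pax7 locus drives the Cre that switches on YFP in satellite cells. The mice had received 100 µL of tamoxifen at 20 mg/ml on each of 5 days, and muscles were taken from 2 weeks later. YFP+ quiescent cells came from uninjured muscle and YFP+ activated cells from muscle collected 72 h after 40 µL of 1.2% barium chloride, a myotoxin. Both kinds of cell entered the same capture, which was then divided into a 10% and a 90% aliquot of droplets. The tables do not say from which muscle or animal a barcode came. There is 1 capture and therefore no replicate, and cells are not replicates, so differences are given as sizes with counting intervals and without a test.

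Nupr1 is a small chromatin-associated protein that is switched on by many kinds of stress and is a classic target of ATF4. ATF4 is the transcription factor at the end of the integrated stress response, in which phosphorylation of the initiation factor eIF2α lowers general translation while the ATF4 message is translated more. Neat1 is the long noncoding RNA that scaffolds nuclear paraspeckles. Hmox1 encodes the haem oxygenase that NRF2 induces and that the repressor BACH1 holds down, and Ndrg1 encodes a differentiation and hypoxia-responsive protein. In muscle, satellite cells leave quiescence after injury, express Myod1, enter the cell cycle and later either differentiate through Myog or return to quiescence.

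ATF4 bound to a C/EBP partner recognises the element TGATGNAA, so the sites in the genes that later appear as higher in the class are shown here. The window searched ran from 250 bases before to 50 bases after each RefSeq start (GRCm38.p6), on both strands. TGATGNAA was present in 3.97% of all 32851 promoters of this length, and in 2.63% of the 7441 genes that were measured here and had a promoter. In the list of 25 integrated stress response genes, 23 had a promoter in the table and 8 held a match, as did Nupr1 and Herpud1. Each line gives 30 bases of the strand that carries the gene, 5′ to 3′, with the match in capitals, and most matches lie on the opposite strand and read as its complement.
Nupr1, chr7:126625562-126625591, minus strand: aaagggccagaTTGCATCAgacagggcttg
Chac1, chr2:119351038-119351067, plus strand: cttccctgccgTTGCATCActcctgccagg
Trib3, chr2:152344028-152344057, minus strand: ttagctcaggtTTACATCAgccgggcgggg
Fgf21, chr7:45615611-45615640, minus strand: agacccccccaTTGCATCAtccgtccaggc
Slc7a11, chr3:50443642-50443671, minus strand: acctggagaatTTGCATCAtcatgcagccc
Vldlr, chr19:27216809-27216838, plus strand: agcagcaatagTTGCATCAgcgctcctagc
Herpud1, chr8:94386306-94386335, plus strand: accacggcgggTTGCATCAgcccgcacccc
Pck2, chr14:55540152-55540181, plus strand: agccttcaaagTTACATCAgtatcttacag
Gars, chr6:55037960-55037989, plus strand: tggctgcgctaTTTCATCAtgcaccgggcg
Asns, chr6:7693214-7693243, minus strand: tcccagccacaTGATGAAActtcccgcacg
The first 7 of these genes were past 1.5-fold higher in the class (Nupr1 by the rule itself), and Pck2, Gars and Asns were not. The Nupr1 match lies 103 bases before the RefSeq start and within a Gencode exon of the gene, since the 2 annotations place the start differently, and the Vldlr and Asns matches also lie in Gencode exons. The Trib3 match lies after its RefSeq start. Of the 13 list members that were higher in the class, 5 held the element (38.5%), close to the 8 of 23 (34.8%) of the whole list. The list was drawn up from genes of ATF4 signalling and amino acid supply, so its share is not a result about the class. Over all genes with a promoter, 13 of the 229 higher genes (5.68%) and 8 of the 221 lower genes (3.62%) held the element.

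The antioxidant response element TGACNNNGC, through which NRF2 acts, was searched in the same way. It was in 12.4% of all promoters, in 17.2% of the measured genes with a promoter and in 8 of 18 such genes of the oxidative stress list. Over all genes the element was in 43 of 229 higher genes (18.8%) and 40 of 221 lower genes (18.1%), close to the share of measured genes. The matches in the 3 of those list genes that were higher in the class are shown.
Gclm, chr3:122245413-122245442, plus strand: gctcccgggcGCACCGTCAactctcacgag
Txnrd1, chr10:82859104-82859133, plus strand: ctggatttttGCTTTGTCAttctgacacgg
Srxn1, chr2:152105542-152105571, plus strand: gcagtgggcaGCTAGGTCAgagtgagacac
The Srxn1 match lies after the RefSeq start, in an exon. Neat1, Hmox1, Ndrg1 and Slc48a1 were not matched to a promoter. A match is a run of letters and not a measured binding site.

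Barcodes shared between the 2 tables bear on what follows. The tables have 634 barcode sequences in common, and all 79 barcodes with at least 20000 UMIs in the 10% table are listed in the 90% table, 76 of them with at least 20000 UMIs there. Each of the 79 expression profiles was closest to that of its own barcode (median r across genes of 0.936, against 0.676 for other barcodes), and their UMI totals in the 90% table were a median of 0.804 of those in the 10% table. The 2 tables thus hold overlapping cells. Of the 606 scored barcodes, 99 had at least 1000 UMIs in the 10% table, 25 of them members. The values below use all 150 members, and values without the shared barcodes (125 members and 379 others) are given beside them as values in unshared cells.

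Depth was close to that of the other classes. Members held a median of 48402.5 UMIs (20593 to 124266) from 5486.5 genes, and the other classes 46356 UMIs (20025 to 128997) from 5337 genes. Mitochondrially encoded genes took a median of 1.04% of UMIs in members and 0.988% in the others. Scrublet called 5 doublets among the 606 scored barcodes, of which 0 were members, and doublets were kept.

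The N set mean of members had a median of 1.03 z-score units (0.0421 to 1.45), and that of the other classes a median of -0.47 (-1.15 to 1.46). The lead of N over the next set in members ran from 0.0497 to 1.64 with a median of 0.506. The class is a range and not a discrete type, since 27 members led by less than 0.25 and 29 other barcodes lay within 0.25 of it. The member nearest the limit led by 0.0497, with 231 CPM of Nupr1 and 217 CPM of Hmox1, and the nearest barcode outside, of the H class, had a lead of -0.0205, with 33.0 CPM of Nupr1 and 132 CPM of Hmox1. All 4 genes lay above their mean over scored barcodes in 136 members, 3 of them did in 13 members and 2 in 1 member. The same held for all 4 genes in 57 barcodes that another set claimed.

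**Figure D1:**
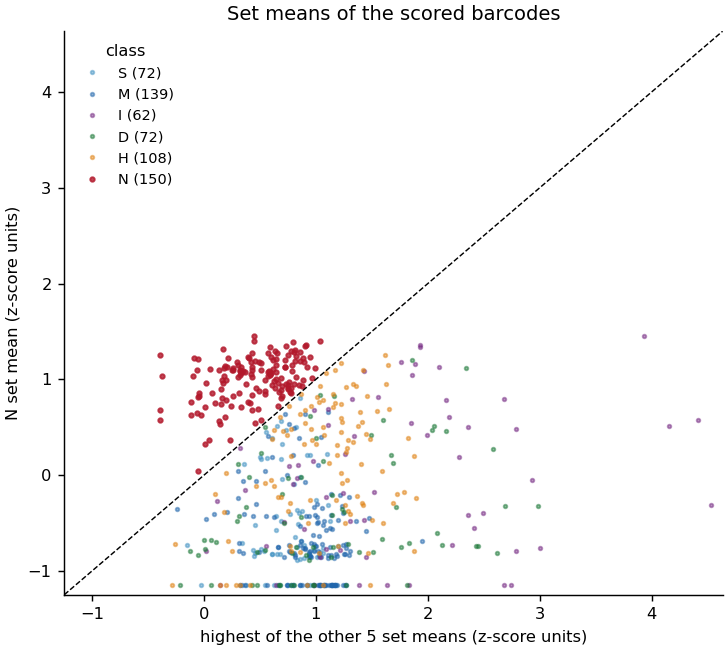
Each point is one of the 603 scored barcodes, with the highest mean of the other 5 sets on the horizontal axis and the N set mean on the vertical axis, both in z-score units, and colours give the class. The 150 members lie above the dashed line of equal means by construction, with leads from 0.0497 to 1.64.

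The 4 genes that define the class are given as a description, because they chose its members. Nupr1 (chr7:126623249-126630861 of GRCm38, minus strand, Gencode vM21) stood at 235 CPM over the pooled members, with an exact Poisson 95% interval of 224 to 246, and at 46.6 CPM in H, 56.8 in I, 30.6 in D, 28.4 in S and 23.8 in M. Among single members its median was 196 CPM with quartiles of 87.0 and 339, while the median of the other barcodes was 0. The highest of the other classes, I, thus stood well below the members, and its interval (48.3 to 66.3 CPM) overlapped that of H (41.0 to 52.7 CPM).

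Neat1 (chr19:5824708-5845478, minus strand) was at 189 CPM in members (179 to 199), at 98.7 in I, 94.4 in H, 41.7 in D, 23.9 in S and 12.2 in M. It had a UMI in all 150 members and in 216 of the 453 others. Hmox1 (chr8:75093621-75100589, plus strand) was at 419 CPM in members (405 to 434), at 257 in I, 132 in H, 98.5 in D, 61.2 in S and 33.4 in M. Hmox1 was therefore the marker that the I class shared most. Ndrg1 (chr15:66929318-66969640, minus strand) was at 84.0 CPM in members (77.7 to 90.8), at 41.9 in I, 31.6 in H, 11.4 in D, 9.83 in S and 5.32 in M.

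The order of the classes was the same for the 4 genes, with members highest, then I, H, D and S, and the M class lowest. The intervals of I and H overlapped for Nupr1, Neat1 and Ndrg1, and those of D and S for Nupr1 and Ndrg1. These levels describe the rule's own genes, and overlap of intervals does not show that neighbours are alike. With every barcode thinned to 20000 UMIs, Nupr1 had a UMI in 88.7% of members and 26.3% of the others, and Ndrg1 in 78.7% and 18.3%. Unthinned, the shares were 95.3% and 43.9% for Nupr1 and 96.0% and 30.9% for Ndrg1. Free RNA in droplets adds UMIs to cells that do not express a gene, and its part was not measured.

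**Figure D2:**
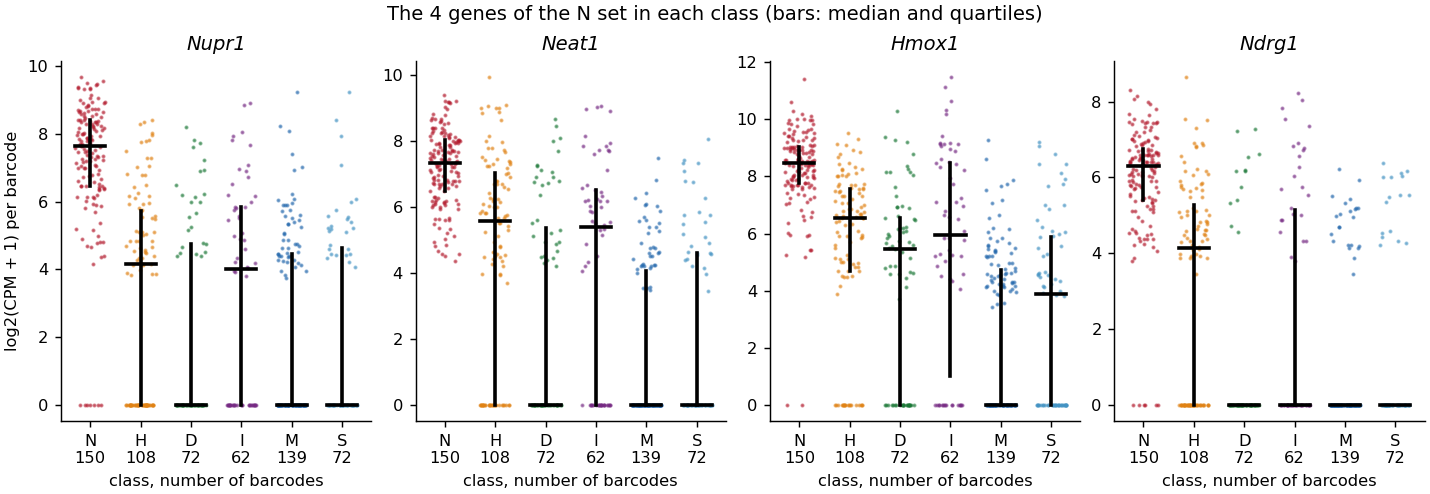
Each point is a barcode, with log2(CPM + 1) of Nupr1, Neat1, Hmox1 or Ndrg1 on the vertical axis and the class and its number of barcodes on the horizontal axis, and black bars give the median and quartiles. The medians of Nupr1, Neat1 and Ndrg1 lie at 0 in the D, M and S classes, and some barcodes of every class overlap the members.

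Leaving each of the 4 genes out of the rule in turn shows it in cells that the other 3 chose, although these genes vary together over the scored barcodes. Without Nupr1 there were 159 members, 146 of them members under the full rule, and Nupr1 stood at 214 CPM in them and 40.2 CPM in the rest, a ratio of 5.31. Neat1 was at 178 and 51.2 CPM when it was left out, Hmox1 at 394 and 107 CPM, and Ndrg1 at 72.2 and 21.6 CPM. Each gene left out was at least 3 times as high in the cells that the other genes picked. Between 141 and 147 of those cells were members under the full rule, and the set was formed with earlier results of these data known. The ratios are therefore a description and not a test of the class.

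Within the class the 4 genes hardly moved together. Across the 150 members, Pearson's r of log2(CPM + 1) between pairs of them ran from -0.14 (Nupr1 with Ndrg1) to 0.067 (Nupr1 with Neat1). Across the 453 other barcodes the same pairs gave 0.287 to 0.528. These points share 1 library, the choice of members on the sum of the 4 genes bears on the first range, and no p is given.

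The genes whose log2(CPM + 1) was most like that of Nupr1 over all 603 barcodes, among 7364 genes with a UMI in at least 25% of them, were Neat1 (r = 0.56), Hmox1 (0.53), Ndrg1 (0.52), Jund (0.48) and Trib3 (0.47). Chac1 (0.47), the ferritin gene Fth1 (0.46) and the glucocorticoid-responsive factor Klf9 (0.46) came next. These cells come from 1 library and differ in class, so r describes the order of genes and nothing more.

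The label of activated stem cells was checked against markers. Myod1, the factor of activated myoblasts, had a UMI in 116 of 150 members, and the ribonucleotide reductase gene Rrm2 in 137. Of the quiescence genes, Chrdl2 and Calcr were each at 0.130 CPM in members, and Spry1 was at 4.16 CPM. Pax7 was at 7.28 CPM in members and 7.94 CPM in the other classes. The 1814 barcodes with at least 1000 but under 20000 UMIs, which the rule leaves out, held Chrdl2 at 179 CPM, Spry1 at 104 CPM and Calcr at 31.0 CPM. They held Rrm2 at 35.3 CPM, against 114 CPM in members, but Myod1 at 896 CPM, against 78.7 CPM in members. Myod1 therefore goes against the label, which rests on the low quiescence genes and on Rrm2. Those shallower barcodes also held the 4 class genes, with Nupr1 at 165, Neat1 at 259, Hmox1 at 745 and Ndrg1 at 150 CPM, so they were not confined to the class in the table as a whole. The same held for genes described below. Chac1 (67.9 CPM), Ddit3 (66.6), Cebpg (182), Srxn1 (224) and Cxcl1 (2636) were higher there than in members, and Trib3 (12.9) and Fgf21 (3.92) lower. The integrated stress response list described below summed to 2137 CPM there and 1883 CPM in members.

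Markers of other cells, which the YFP sort would remove, were counted in the class. Of 9 macrophage genes, Adgre1, C1qa and C1qc had 0 UMIs in members, and the list summed to 5.07 CPM, with 2.81 to 10.4 CPM in the other classes. Endothelial genes summed to 1.56 CPM (3.78 to 6.63 in the other classes), with Cd36, Emcn and Tie1 at 0. Fibro-adipogenic genes summed to 55.8 CPM (49.2 to 234), with Lum at 0 and Pdgfra at 0.130 CPM. Erythroid genes summed to 3.25, tenocyte genes to 14.6, mural genes to 29.1 and myofibre genes to 15.0 CPM. Of the glial genes, the neurotrophin receptor gene Ngfr was at 21.5 CPM in members, above the 7.26 to 14.6 CPM of the other classes, while Sox10 was at 0.130 CPM and Cdh19 at 0. The part of these RNAs in the results was not tested.

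Across the transcriptome the members were next set against the other 5 classes pooled. The 20 largest folds included Chac1, Trib3, Ddit3 and Cebpg of the integrated stress response, Srxn1 and Sqstm1 of the oxidative stress response, and the chemokine genes Cxcl1 and Cxcl2. The AP-1 gene Jund and 11 other genes made up the rest, and the 10 lowest folds were those of small noncoding RNAs and the Id genes. A gene was measured if it had a UMI in at least 10% of either group, and it was called at a 1.5-fold difference of pooled CPM after 10 CPM had been added to both. Of 11027 measured genes outside the 24 rule genes, 308 were higher (2.79%) and 326 lower (2.96%). In unshared cells, 336 of 10947 were higher (3.07%) and 350 lower (3.2%). These counts describe cells of 1 capture that the rule itself sorted, so every fold here describes the members and is not a test of them.

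The integrated stress response list, 25 genes of ATF4 signalling and amino acid supply, had 13 genes past 1.5-fold higher and 0 lower, against 2.79% and 2.96% of all genes. Its median log2 fold was 0.59, and the median of all measured genes was 0.00. In unshared cells 12 were higher and 0 lower.

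Chac1, whose enzyme breaks down glutathione, was at 50.9 CPM in members (45.9 to 56.2) and 5.85 CPM in the others (4.89 to 6.96). Single other classes held between 3.92 CPM (M) and 8.15 CPM (S). It had a UMI in 95 of 150 members and 62 of 453 others, so part of the class showed none. Trib3, a pseudokinase that restrains ATF4, was at 32.5 and 5.31 CPM, with H next at 10.5 CPM and D at 0.947 CPM. Ddit3, the proapoptotic factor CHOP, was at 38.6 and 11.8 CPM, and Cebpg, a dimer partner of ATF4, at 80.4 and 31.3 CPM. Atf4 itself was at 443 CPM in members and 224 CPM in the others, a log2 fold of 0.95.

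Further down the list, Fgf21, a secreted stress hormone, was at 13.7 and 1.18 CPM, and the stress gene Sesn2 at 31.0 and 12.03 CPM. The cystine transporter gene Slc7a11 was at 10.4 and 2.77 CPM, and Ddit4, an inhibitor of mTORC1, at 31.6 and 16.6 CPM. The mitochondrial folate enzyme gene Mthfd2 was at 192 and 124 CPM and completed the 13 together with Cebpb, Vldlr and Atf5. The enzymes of serine and asparagine supply did not share this. Phgdh had a log2 fold of -0.35, Shmt2 of -0.18, Asns of -0.12 and Psat1 of 0.03. The tRNA synthetase genes Nars and Gars had 0.25 and 0.02.

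**Figure D3:**
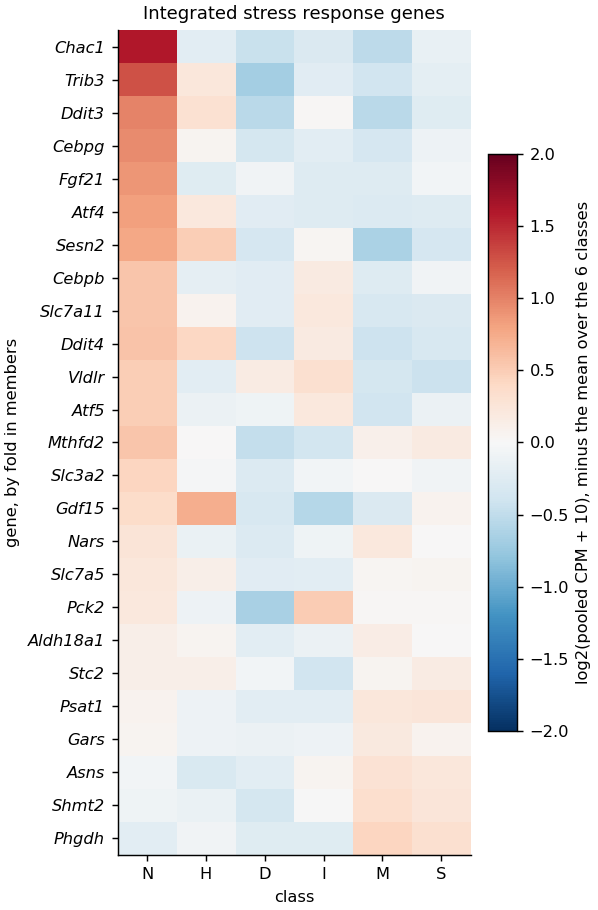
Rows are the 25 integrated stress response genes in the order of their fold in members, columns are the 6 classes, and colour gives log2(pooled CPM + 10) minus the gene's mean over the classes. The N column is the reddest in each row from Chac1 to Slc3a2, Gdf15 is reddest in H and Pck2 in I, and Phgdh, Shmt2, Asns and Psat1 are redder in the M and S columns.

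Genes of the oxidative stress response, mostly NRF2 targets, were split. Of 22 measured, 7 were higher and 1 lower, with a median log2 fold of 0.20, and in unshared cells these were also 7 and 1. Srxn1, which reduces peroxiredoxins, was at 54.5 and 15.5 CPM, and the autophagy receptor gene Sqstm1 at 183 and 73.1 CPM. Gclm and Gclc, the subunits of the enzyme that starts glutathione synthesis, were at 97.7 and 41.3 CPM and at 33.8 and 11.8 CPM. The I class came next after members for Sqstm1 (160 CPM), Gclm (79.5 CPM), Srxn1 (36.6 CPM) and Gclc (19.5 CPM). The whole list summed to 2965 CPM in I and 2797 CPM in members, so a high sum was not particular to the class. Abcc1 and Txnrd1 had log2 folds of 0.74 and 0.63, and Slc7a11 belongs to this list too. Nqo1, a textbook NRF2 target, was at 4.81 and 1.82 CPM, a log2 fold of 0.33 that did not reach 1.5-fold. Prdx1 was at -0.40 and the pentose phosphate enzyme gene Taldo1 was lower, at -0.64.

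Hmox1 releases iron from haem, and of 12 measured genes of haem and iron handling 3 were higher and 1 lower, in unshared cells as well. The ferritin genes Fth1 (4191 and 2447 CPM) and Ftl1 (578 and 335 CPM) both had a log2 fold of 0.77. Bach1, the repressor of Hmox1, was at 0.63, and Hmox2, the constitutive haem oxygenase, was lower at -0.73. Slc48a1, which moves haem out of endosomes and lysosomes and was not on the list, was at 63.6 and 23.4 CPM. Against H alone, 0 of the 12 passed 1.5-fold, with Fth1 at 0.40 and Ftl1 at 0.43.

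Inflammatory genes had 8 of 13 measured higher and 0 lower, with a median log2 fold of 0.62, and 7 and 0 in unshared cells. Cxcl1, a neutrophil chemokine, was at 209 CPM in members and 54.7 CPM in the others, but its levels were uneven. The median member held 69.5 CPM with quartiles of 21.5 and 200, and 1 member supplied 7.5% of the UMIs. Cxcl2 was at 24.97 and 3.90 CPM, with a UMI in 40 of 150 members. Nfkbia and Nfkb1, an inhibitor and a subunit of NF-κB, were more even, at 203 and 93.9 CPM and at 59.0 and 27.4 CPM. Nfkb2 and Timp1 did not pass, with log2 folds of -0.18 and -0.29.

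Of 3 metallothioneins, Mt1 and Mt3 passed 1.5-fold, with log2 folds of 0.62 and 0.94, and Mt2 at 0.51 did so in unshared cells alone (0.59). In the 10% table the log2 folds were 0.046 for Mt1, 0.30 for Mt2 and 1.12 for Mt3. By long reads, described further on, Mt1 was at 611 and 636 CPM, Mt2 at 748 and 596 CPM. The I class held Mt1 at 804 CPM and Mt2 at 810 CPM, against 924 and 804 CPM in members. Mt3 was at 16.7 CPM in D and 22.5 CPM in members. Metallothioneins bind zinc and copper.

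Of 19 measured p53 targets, 4 were higher and 0 lower (5 and 0 in unshared cells), with a median log2 fold of 0.30. Plk2 was at 164 and 73.2 CPM, Pmaip1, which encodes the proapoptotic NOXA, at 60.2 and 26.9 CPM, and Sesn2 is shared with the stress response list. The fourth, the death receptor gene Fas, was at 14.6 and 5.22 CPM, but 40.2% of its UMIs came from 1 member and its log2 fold was 0.38 in unshared cells. Cdkn1a, the best known target, stood at 591 and 396 CPM, a log2 fold of 0.56 just short of 1.5-fold. In D it was at 670 CPM, above members. Fas was at 18.1 CPM in I, also above members, and Pmaip1 at 53.1 CPM in H and 46.7 CPM in D. Plk2 (106 CPM in I) and Sesn2 (23.6 CPM in H) were lower in each other class. The list summed to 1933 CPM in members, 1988 CPM in D and 943 CPM in M. Against D alone 4 of 19 were higher and 1 lower, with a median of 0.03.

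Among 11 measured cell cycle inhibitors, 4 were higher and 0 lower. They were Cdkn2b (p15; 22.5 and 7.49 CPM), Gas1 (64.6 and 33.1), Btg1 (188 and 105) and Ccng2 (25.8 and 11.98). The nearest other class was I for Cdkn2b (15.6 CPM), Gas1 (44.0 CPM) and Ccng2 (22.0 CPM), and H for Btg1 (157 CPM). Against H alone, 3 of 11 measured inhibitors were higher and 0 lower, with Btg1 at a log2 fold of 0.24. Mitotic genes were lower, 9 of 19 with 0 higher and a median log2 fold of -0.57, and of 16 DNA replication genes Rrm2 was lower (114 and 285 CPM) and 0 were higher. The M and S classes were drawn with genes of these programmes, so this difference follows in part from the choice of classes. The lowest log2 folds of the mitosis list were those of Plk1 (-1.10) and Ube2c (-1.03), and the nearest to 0 were those of Mki67 (-0.27; 20.2 and 26.3 CPM) and Top2a (-0.25; 62.6 and 76.5 CPM). In the 10% table, described further on, 18 of the 19 mitosis genes were lower, with Mki67 at -1.42 and Top2a at -0.93. Of 12 cell cycle inhibitors measured there, 2 were higher. Cdkn2b had a log2 fold of 0.99 and Btg1 of 0.95 in that table, while Ccng2 was at 0.35 and Gas1 at 0.17.

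The hypoxia list had 0 genes past 1.5-fold, and the genes of the unfolded protein response that passed were split by direction. Of 12 measured hypoxia genes, 0 were higher and 0 lower, with a median log2 fold of 0.11, with Bnip3l at 0.46, Kdm3a at 0.44, Vegfa, an angiogenic factor, at 0.42 and Mxi1 at 0.37. The number higher ran from 0 to 4 over the alternatives. Of 14 glycolysis genes, Hk2 was higher (0.71) and Eno1 lower (-0.80), with a median of -0.28. Of 16 genes of the endoplasmic reticulum, Herpud1 (54.5 and 20.6 CPM) and Dnajb9 (41.9 and 24.05 CPM) were higher, while the chaperone genes Hspa5 (168 and 268 CPM), Hsp90b1 (191 and 328 CPM) and Pdia6 (77.3 and 140 CPM) were lower.

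**Figure D4:**
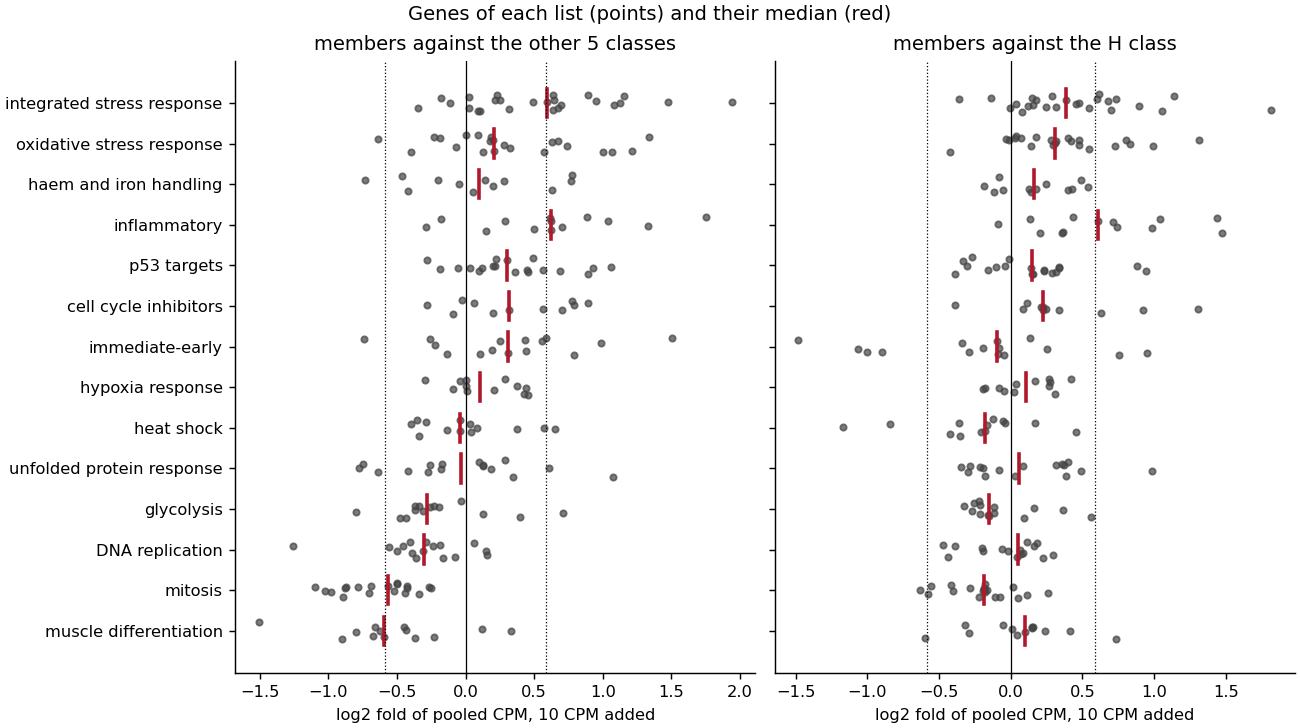
Each point is a gene of the list named on the left, with its log2 fold in members against the other 5 classes (left) or the H class alone (right) on the horizontal axis, after 10 CPM had been added, red bars give medians and dotted lines mark 1.5-fold. The integrated stress response and inflammatory medians (0.59 and 0.62) lie near the right-hand dotted line in the left panel, and in the right panel their medians were 0.38 and 0.61 while the mitosis median was -0.18.

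Genes named by size alone added several regulators. Jund, an AP-1 subunit, was at 260 and 84.8 CPM, and the AP-1 gene Fosl2 at 55.3 CPM in members and no more than 30.1 CPM in a single other class. Sgk1, a kinase induced by glucocorticoids and stress, was at 191 and 71.8 CPM but at 160 CPM in H, and Klf9 at 61.0 and 19.7 CPM. Ypel5, Sox4, Ifrd1, Rdh10, Resf1, Rsbn1 and Fam13c completed, with Slc48a1 and genes of the lists above, the 20 genes with the largest folds. Ypel5 stood at 77.0 CPM in members and 7.84 CPM in the M class, and Fam13c at 27.3 CPM in members and 6.49 CPM in the others.

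On the other side, 7 of the 10 lowest genes were small noncoding RNAs by the Gencode annotation. Gm23935 and Gm24270, annotated as miRNA genes, were at 16.4 and 236 CPM and at 11.2 and 156 CPM. Rn7sk, the 7SK RNA that restrains transcription elongation, was at 4.16 and 87.5 CPM, Gm26315 and Gm24447 are of the same annotated kind, and Gm25212 and n-R5s123 are annotated as rRNA genes. These RNAs were also low in the H class, with Rn7sk at 16.3 CPM there and 162 CPM in D. They are short or lack a poly(A) tail, have near-identical copies, and their UMIs reach a 3′ library only in part, so counts can be split between copies.

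The 3 other lowest genes were Id1, Id2 and Id3, inhibitors of basic helix-loop-helix factors that BMP signals induce. Id1 was at 16.3 CPM in members (13.5 to 19.4) and 97.5 CPM in the others, Id2 at 48.0 and 201 CPM, and Id3 at 61.1 and 272 CPM. The level of Id1 was 56.3 CPM in H, the lowest of the other classes, and 152 CPM in M, and H was also the lowest for Id2 and Id3. In unshared cells Id1 was at 15.4 and 96.4 CPM.

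Myod1 was at 78.7 CPM in members (72.5 to 85.2) and 260 CPM in the others (253 to 266). Its single-cell median was 51.1 CPM in members with quartiles of 17.6 and 107, and 200 CPM in the others with quartiles of 88.0 and 351. Not 1 of the 150 members exceeded the 90th percentile of the others. Members were below each other class, from 140 CPM in I to 392 CPM in D. Myf5, its relative in earlier precursors, stood at 48.3 and 31.7 CPM, and Cdh15 at 41.2 and 62.7 CPM. Muscle differentiation genes were lower for 7 of 13 measured, with a median log2 fold of -0.60, yet against H alone, of 11 measured, 1 was lower and 1 was higher. Mylpf was at 5.33 CPM in members, 5.24 CPM in H and 198 CPM in D, which was drawn with genes of this programme.

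The H class, with the stress and immediate-early genes Hspa1a, Fosb, Smad7 and Atf3, also holds stress genes, and the members were compared with it directly. Of 10994 genes, 237 were higher (2.16%) and 46 lower (0.418%). Of the 25 integrated stress response genes, 9 were higher in members than in H and 0 lower, with a median log2 fold of 0.38 against 0.04 over all genes. Chac1 stood at 7.29 CPM in H and Trib3 at 10.5 CPM. Of the inflammatory genes 7 were higher, among them Ccl2 (log2 fold of 1.47) and Cxcl1 (1.44).

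Some immediate-early and heat shock genes were lower than in H, and the H class was drawn with genes of these programmes (Fosb, Atf3 and Hspa1a), so this difference follows in part from the choice of classes. Of 15 immediate-early genes, 4 were lower in members than in H, namely Fos (-1.48), Dusp1 (-1.06), Ier3 (-1.001) and Jun (-0.90), and Jund (0.75) and Fosl1 (0.95) were higher. Klf4 and Klf6, higher in members than in the 5 classes pooled, were at 125 and 141 CPM in members and at 155 and 163 CPM in H. Atf3 was at 61.6 CPM in members, 110 CPM in H and at most 15.8 CPM elsewhere, although it counts towards H in the rule. Of 13 heat shock genes, Hspb1 (-1.17) and Hspa1b (-0.84), a near-identical copy of Hspa1a, were lower in members than in H.

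Against the D class, whose cells leave the cycle to differentiate, 650 of 11053 genes were higher in members (5.88%) and 437 lower (3.95%). The list counts were 14 of 25 higher for the integrated stress response, 8 of 22 for oxidative stress and 9 of 15 for immediate-early genes. Muscle differentiation genes were lower for 15 of 16 measured there. Mitosis and DNA replication genes were higher for 3 of 19 and 4 of 16, and 0 were lower.

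Single members differed in how much of each programme they held. The summed CPM of the integrated stress response list ran from 577 to 3175 in members with a median of 1879, and from 152 to 3388 in the others with a median of 1249. It exceeded the 90th percentile of the others in 79 of 150 members (52.7%). The same share was 32.7% for inflammatory genes, 20.0% for long noncoding RNAs, 18.0% for immediate-early genes, 16.0% for hypoxia, 15.3% for p53 targets and 10.0% for oxidative stress. For mitosis it was 1 member. A total of 40 members (26.7%) fell below the 10th percentile of the others in the sum of myogenic stem cell genes. Myod1 carried most of that sum's difference, as the list totalled 433 CPM in members and 643 CPM in the others, and of its 17 measured genes Myod1 alone was lower and 0 were higher, with a median log2 fold of 0.01.

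High sums of different programmes overlapped in part. Of the 15 members above the percentile for oxidative stress, 8 were also above it for the integrated stress response, as were 14 of the 24 above it for hypoxia, shares close to the 52.7% of all members. A total of 55 members (36.7%) exceeded the percentile for not 1 of these 3 lists, as did 331 of the others (73.1%). Across members, the log2 sums of the integrated stress response and oxidative lists gave r = 0.11, and the former with inflammatory genes gave -0.030. The integrated stress response sum also moved with UMIs per barcode, with r = 0.26 in members and 0.40 in the others, and the part of depth in it was not tested.

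Members were also described by the set that came next after N. It was H in 44 members, S in 44, D in 25, I in 22 and M in 15. Trib3 stood at 49.2 CPM in members next to S and between 23.3 and 28.8 CPM in the other groups, and Chac1 at 65.0 CPM next to S, 79.5 CPM next to M and 34.5 to 40.7 CPM in the rest. Cxcl1 stood lowest next to S, at 115 CPM, and at 203 to 291 CPM elsewhere, highest next to M. Nupr1 (196 to 279 CPM), Jund (241 to 269 CPM) and Id1 (14.2 to 22.3 CPM) varied less. Ddit3 stood lowest next to S, at 26.5 CPM, so the ATF4 targets did not share 1 order. The smallest of these groups holds 15 cells.

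The 10% table gives the same rule in its own barcodes, 79 of which were scored. It placed 18 in the class and 60 in the other classes, 1 with Ptprc UMIs being set aside, with a median of 72177 UMIs in its members. Of 12511 genes, 473 were higher (3.78%) and 761 lower (6.08%). Of the 76 barcodes scored in both tables, 66 were given the same class, and 15 were in the Nupr1-Neat1 class in both, out of 17 by the 10% table and 19 by the 90% table. The table therefore does not stand for independent cells, and the comparison that does not share barcodes is that with the 125 unshared members of the 90% table.

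In that comparison, 322 of the 336 genes higher in unshared members were on the same side in the 10% table (95.8%, against 47.3% of all genes), and 164 were past 1.5-fold there (48.8%, against 3.78%). Of the 350 lower genes, 349 were measured in the 10% table, 344 were on the same side (98.6%, against 52.7%) and 218 past 1.5-fold (62.5%, against 6.08%). Both tables come from 1 capture and their classes were cut by the same 24 genes. Chac1 was at 52.7 and 5.78 CPM in unshared cells and 36.9 and 8.09 CPM in the 10% table, and Id1 at 15.4 and 96.4 CPM and at 12.8 and 87.5 CPM. Of the integrated stress response list 9 of 25 were higher and 0 lower in the 10% table. Ccl2 was an exception, higher in unshared members and lower in the 10% table (log2 fold of -1.61).

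**Figure D5:**
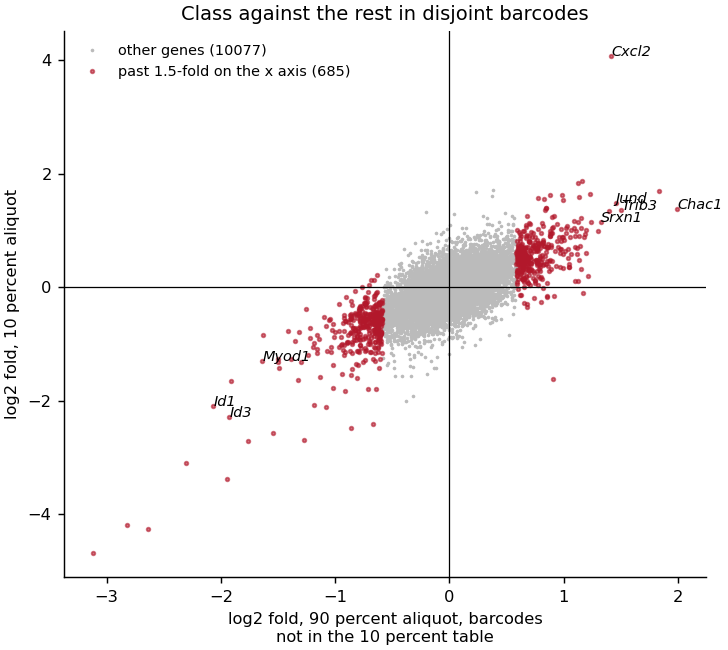
Each point is a gene, with its log2 fold between the class and the other classes in unshared cells of the 90% table (horizontal axis) and in the 10% table (vertical axis). Unshared cells are barcodes without at least 1000 UMIs in the 10% table, and red marks genes past 1.5-fold on the horizontal axis. Most red points lie at the upper right and lower left, and Cxcl2 stands apart at the top.

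Long reads of the 10% aliquot, sequenced on a nanopore device and assigned to isoforms by FLAMES, gave 906935 UMIs in its 18 members and 3690746 in its 60 others. Nupr1 was at 402 and 75.3 CPM in them, Neat1 at 473 and 123, Hmox1 at 1174 and 554 and Ndrg1 at 161 and 58.3. Chac1 was at 107 and 32.5 CPM, Trib3 at 114 and 23.3 CPM and Id3 at 89.3 and 441 CPM. The first 4 of these genes chose the droplets. The direction was not that of the short reads for each gene. Sesn2 was at 29.8 CPM in members and 40.4 CPM in the others by long reads, with a log2 fold of 0.46 by the short reads of this aliquot. Gas1, with 6 long-read UMIs in members, was at 6.62 and 8.13 CPM, against a short-read log2 fold of 0.17. For Cxcl2, at 534 and 17.3 CPM, 1 member supplied 96.3% of the UMIs, and for Fas 1 member supplied 92.2%.

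For Nupr1 and Hmox1 the intervals of the main isoform overlapped between groups. The Nupr1 isoform ENSMUST00000032961.3 took 60.5% of 365 UMIs in members (exact interval 55.3% to 65.6%) and 58.6% of 278 in the others (52.6% to 64.5%). For Hmox1, ENSMUST00000005548.7 took 88.5% of 1065 (86.5% to 90.4%) and 90.9% of 2043 UMIs (89.6% to 92.2%). Neat1 was read as isoforms that end at several positions. Those ending at position 5842307 of chromosome 19, 3172 bases from the start of the gene, took 15.2% of 429 UMIs in members (11.9% to 18.9%) and 23.5% of 455 in the others (19.7% to 27.7%), and those ending at 5834138, 11341 bases from the start, 53.1% and 46.6%. Poly(A) capture can start inside a long RNA, and cells of 1 capture give no replicate, so the shares describe these cells. The grouping by end was chosen after the values had been seen.

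Among 108 named genes with at least 20 long-read UMIs in each group, 15 had an isoform whose share differed by 20 percentage points or more. The share of all genes with such a difference was not measured, so this count does not set the named genes apart. These genes are named after their values had been seen. For Ddit3, the reference isoform ENSMUST00000026475.14 took 54.3% of 92 UMIs in members (43.6% to 64.8%) and 27.8% of 126 in the others (20.2% to 36.5%). An isoform that FLAMES assembled at chr10:127290863-127294570 took 15.2% and 55.6%. The Ddit3 UMIs came from 13 members, 1 of which gave 35.9%. For Hspa5, an assembled isoform at chr2:34772099-34776455 took 25.7% of 455 UMIs in members and 47.6% of 2083 in the others, with 33.0% of the members' UMIs from 1 cell. Members of a group share a library, so these intervals cover counting error and not the spread between cells.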

How the data were processed

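The authors deposited UMI counts per gene from short reads (scPipe) for both aliquots and UMI counts per isoform from long reads (FLAMES) for the 10% aliquot, on GRCm38.p6 and without normalization. The submitters' processing notes also list minimap2 2.17 and Cell Ranger 1.3. Symbols and positions came from Gencode vM21 and promoters from RefSeq.

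The 90% table held 39044129 UMIs over 3001 barcodes, and 6772259 UMIs over 1991 barcodes were in the 10% table. Counts were divided by barcode totals, log2(CPM + 1) was z-scored over barcodes with at least 20000 UMIs, and set means were compared. Counts of members and others were then pooled. Genes with a UMI in at least 10% of either group were called at 1.5-fold after adding 10 CPM. Members and lists were chosen with earlier results of these data known. Named genes were the rule genes, the 20 highest and 10 lowest folds (UMI in at least 25% of a group, 20 CPM), up to 4 genes per list with the largest fold, marker genes and the 5 genes most correlated with Nupr1. Genes outside this rule are named as list members or after their values had been seen. Of the listed genes, 9 were not analysed here, and some marker genes of other cells are not reported here. Intervals are exact 95% Poisson or binomial intervals and cover counting error only, since PCR and capture add to it. Alternatives varied the UMI minimum, lead, added CPM, fold, filter, scaling, doublets and comparison barcodes. Calls were tested on simulated data, with Python 3.11.15, scipy 1.17.1 and scanpy 1.11.5 (Scrublet). The authors' isoform annotation and the numbers in the barcode lists were not used here.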

Additional observations from a re-analysis of the deposited data

How the results depend on the processing

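The class is a cut on a score in 1 capture, without replicates, so limits are those of depth and choice. The number of members stayed within 1.5 times 150 under each alternative run, among them the barcodes without at least 1000 UMIs in the 10% table (125, chosen after the data had been seen). With 1 CPM added, 1299 genes were higher and 1278 lower. With 50 CPM added, 48 and 53 were, with 3 integrated stress response genes higher, and at 2-fold 42 and 45, with 5. Against H alone 46 genes were lower and against D alone 650 higher. With at least 50 long-read UMIs, 3 genes in place of 15 shifted an isoform by 20 points. Another direction was taken against H by Mylpf (0.00904), Myl1 (0.15), Klf4 (-0.29), Klf6 (-0.19), Bgn (0.12) and Ly6a (0.24), against D by Cenpe (0.0891), and by gene Bgn (0.0225) with others of like depth. Of 80 named genes past 1.5-fold, 78 remained so without the shared barcodes, 40 against H alone (34 no longer past it and 6 in the other direction), 62 against D alone and 42 with 50 CPM added. The mean of single-cell CPM, median-of-ratios scaling and totals without mitochondrially encoded genes, Malat1 and Neat1 changed the counts of higher and lower genes by less than 1.5 times. No paired analysis was possible because each aliquot is 1 library and no test was run.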

Other observations

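Of 22 cytosolic ribosomal protein genes and 13 mitochondrially encoded genes, 0 were past 1.5-fold in either direction, with median log2 folds of 0.06 and 0.09. The same held for 12 genes of paraspeckle proteins, the partners of Neat1, with a median of -0.10, and for 14 genes of cholesterol synthesis, with a median of -0.10. Among long noncoding RNAs, Kcnq1ot1 (80.9 and 42.0 CPM) and Malat1 (3059 and 1968 CPM) were higher and H19 (7.80 and 31.4 CPM) lower in members than in the other 5 classes pooled. H19 was at 92.5 CPM in D but at 10.5 CPM in H, with a log2 fold of -0.20 against H alone. Malat1 was at 3159 CPM in I and 2947 CPM in D, and its log2 fold of 0.63 became 0.55, short of 1.5-fold, with the mean of single-cell CPM. Of the lysosome and autophagy list, Gabarapl1 (log2 fold of 0.80), Map1lc3b (0.60) and Tfe3 (0.60) were higher beside Sqstm1, while the protease gene Ctsl was at 137 and 339 CPM. Of the matrix genes, Sparc was at 87.0 CPM in members, 103 CPM in H and 458 CPM in I.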
